A study of Mus musculus with 16 samples.

Results

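The genes described here are 10 genes of the perineuronal net and the brain matrix, taken from the deposited table by their symbols, out of 39017 genes in all. They are the lectican proteoglycans Acan, Bcan, Ncan and Vcan, the tenascins Tnr and Tnc, the link proteins Hapln1, Hapln2 and Hapln4, and the receptor phosphatase Ptprz1. All 10 were among the 14814 genes that had a mean normalized value of at least 10 over the libraries and were tested. The study sequenced poly-A RNA of micro-dissected brain tissue from 13-week-old male mice of the C57BL/6JRcc strain, in 16 libraries. The Mutant mice were homozygous for a CRISPR/Cas9 knock-in of the human H150Y substitution in Cdh2, the gene of N-cadherin, an adhesion protein, and the WT mice carried no altered allele. There were 4 Mutant and 4 WT libraries of the ventral midbrain (vMB), and 4 Mutant and 4 WT libraries of the prefrontal cortex (PFC). The substitution is carried by every cell of the animal. The study kept a pair of founder lines, and the line behind each Mutant library is not given. All animals had been through behavioral tests and were perfused with saline and then formaldehyde before the tissue was taken.

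Perineuronal nets are lattices of extracellular matrix that wrap the cell body and proximal dendrites of certain neurons, above all the fast-spiking interneurons that make parvalbumin. Their backbone is hyaluronan, to which the lecticans bind, and link proteins hold each lectican on the hyaluronan chain. Tenascin-R, the product of Tnr, joins the far ends of the lecticans to one another. Looser matrix with the same components fills the rest of the brain, and a specialised form surrounds the nodes of Ranvier of myelinated axons. Removal of the nets is known to reopen plasticity in the adult cortex.

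Depth, estimated from the steps between low values, ran from about 7738000 to 11300000 reads per library. The tissue labels matched their markers. Slc6a3, the dopamine transporter, had values of 424 to 550 in vMB Mutant and 460 to 799 in vMB WT libraries, against 0 to 6.72 in PFC Mutant and 0 to 3.48 in PFC WT libraries. Slc17a7, the vesicular glutamate transporter of cortical projection neurons, had values of 855 to 3112 in vMB Mutant and 856 to 2281 in vMB WT, against 13400 to 17850 in PFC Mutant and 14610 to 15900 in PFC WT. A table of gene totals cannot show the substitution itself. A pair of PFC libraries stood apart: 12 oligodendrocyte markers summed to 93320 in PFC Mutant replicate 2, against 28350 to 41790 in the other PFC Mutant libraries, and to 71580 in PFC WT replicate 3, against 24580 to 33110 in the other PFC WT libraries. The fits were therefore also made without this pair, a choice made after seeing the data. The sample titles carry codes, 4 of which occur in a PFC and a vMB library of the same genotype, and the sources do not say what the codes stand for or which libraries come from the same animal. Codes with the letters A or D occur only in Mutant libraries, those with B or E only in WT libraries, and those with C in both. Whatever the letters A, B, D and E stand for cannot be told apart from genotype.

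The promoters of 9 of the 10 genes were matched in RefSeq (GRCm38.p6) as windows of 300 bases, from 250 before to 50 after the annotated start, in 10 windows because Tnc has a pair of starts; Hapln4 had no entry. CG dinucleotides were counted in each window. Acan had 31, Ptprz1 29 and Bcan 24, more than 89.4%, 87.1% and 80.0% of all 32851 windows. Tnr and Hapln1 had 3 each and Hapln2 had 2, against a median of 7 over all windows. The letters TATAA, on either strand, occurred in 3 of the 10 windows, those of Ncan and both of Tnc, against 24.9% of all windows. The letters CCAAT, on either strand, occurred in 4 of 10, against 37.4% of all windows. The 5 windows printed here belong to the genes on which the results turn: Tnr and Ptprz1, which were lower in Mutant tissue, Acan and Hapln2, which were far higher in the vMB, and Ncan, which was far lower there. Capitals mark each CG. The windows lie at chr1:159523519-159523818 on the plus strand for Tnr, chr6:22875252-22875551 on the plus strand for Ptprz1, chr7:79052976-79053275 on the plus strand for Acan, chr3:88027462-88027761 on the minus strand for Hapln2, and chr8:70120795-70121094 on the minus strand for Ncan.
Tnr: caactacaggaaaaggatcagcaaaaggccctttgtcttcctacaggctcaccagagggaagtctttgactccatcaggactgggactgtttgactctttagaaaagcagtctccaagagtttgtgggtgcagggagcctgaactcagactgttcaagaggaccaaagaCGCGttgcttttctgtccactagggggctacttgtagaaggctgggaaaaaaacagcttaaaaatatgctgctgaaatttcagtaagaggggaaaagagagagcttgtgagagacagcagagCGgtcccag
Ptprz1: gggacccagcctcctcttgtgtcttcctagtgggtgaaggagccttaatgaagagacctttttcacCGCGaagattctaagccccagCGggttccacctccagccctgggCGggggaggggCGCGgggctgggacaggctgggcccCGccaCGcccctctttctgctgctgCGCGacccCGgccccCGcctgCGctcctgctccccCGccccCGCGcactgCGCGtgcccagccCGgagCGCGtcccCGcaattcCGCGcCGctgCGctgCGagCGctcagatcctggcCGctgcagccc
Acan: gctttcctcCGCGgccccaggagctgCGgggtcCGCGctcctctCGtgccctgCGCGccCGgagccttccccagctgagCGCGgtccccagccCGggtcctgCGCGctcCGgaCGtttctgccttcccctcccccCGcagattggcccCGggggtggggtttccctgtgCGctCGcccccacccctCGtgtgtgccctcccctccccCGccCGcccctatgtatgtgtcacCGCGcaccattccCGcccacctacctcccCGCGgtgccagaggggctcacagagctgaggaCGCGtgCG
Hapln2: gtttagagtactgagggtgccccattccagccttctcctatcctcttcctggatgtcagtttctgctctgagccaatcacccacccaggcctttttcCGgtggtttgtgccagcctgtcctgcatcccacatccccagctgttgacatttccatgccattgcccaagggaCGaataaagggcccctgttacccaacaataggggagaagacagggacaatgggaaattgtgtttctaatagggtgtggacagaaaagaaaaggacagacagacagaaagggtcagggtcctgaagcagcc
Ncan: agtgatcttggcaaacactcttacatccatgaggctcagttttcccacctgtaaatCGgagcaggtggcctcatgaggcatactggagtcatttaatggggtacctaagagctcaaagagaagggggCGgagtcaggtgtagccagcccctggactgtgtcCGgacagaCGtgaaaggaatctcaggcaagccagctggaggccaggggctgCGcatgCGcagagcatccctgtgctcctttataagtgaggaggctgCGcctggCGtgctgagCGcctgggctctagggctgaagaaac
The printed windows differed in CG content within both groups of genes: of the genes lower in Mutant tissue, Tnr had 3 and Ptprz1 29, and of the genes far higher in the vMB, Hapln2 had 2 and Acan 31. No transcription factor or methylation data were analysed here.

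The tissue comparison addressed where each gene is made in unaltered and mutated brain. In Mutant and in WT mice alike, Acan and Hapln2 were far higher in the vMB than in the PFC, Hapln4 and Tnc were moderately higher, and Ncan and Tnr were lower. These 6 genes passed the test in both genotypes. To be called, a gene had to reach an adjusted p of 0.05 or less together with a fold of 1.3 or more (limma on log2 of the normalized value plus 1, Benjamini-Hochberg over all 14814 genes). Of all genes, 23.6% were called lower and 23.7% higher in the vMB of Mutant mice, and 21.6% lower and 22.0% higher in WT mice, so that 2 of 10 lower and 4 of 10 higher in each genotype is a share near or somewhat above the background. Both tissue comparisons are between dissected regions with different cell types. In bulk tissue, fewer cells of a type and less RNA per cell cannot be told apart.

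**Figure D1:**
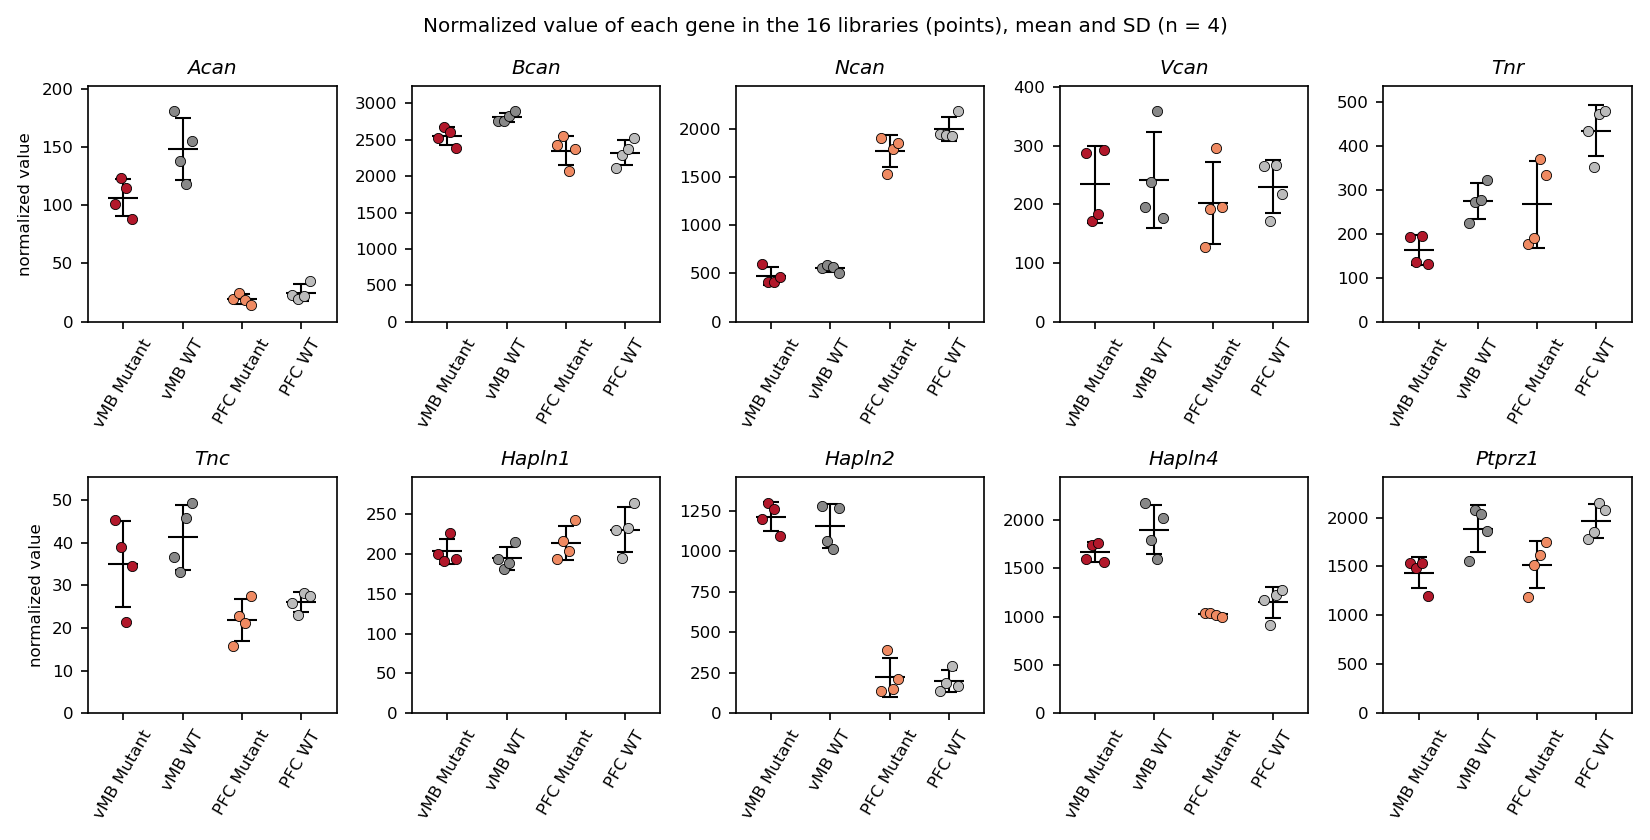
Normalized value (vertical axis, starting at 0, a different scale in each panel) of each of the 10 genes in the 16 libraries, grouped along the horizontal axis by tissue and genotype. Points are libraries, the long bar is the mean and the whiskers are 1 SD (n = 4). Acan and Hapln2 are high in both vMB groups, Ncan is high in both PFC groups, and Ptprz1 sits lower in Mutant than in WT libraries of each tissue. Tnr does so in the vMB, while in the PFC Mutant replicate 3 lies above WT replicate 2.

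Among the lecticans, aggrecan (Acan), the large proteoglycan that marks mature nets, had normalized values of 101, 123, 114 and 87.8 in vMB Mutant and 181, 138, 118 and 155 in vMB WT, against 19.4, 24.6, 18.7 and 14.6 in PFC Mutant and 23.3, 19.2, 22.0 and 35.4 in PFC WT. Every vMB library was above every PFC library. The difference was 2.42 ± 0.20 on the log2 scale in Mutant mice (SE, adjusted p = 1.588e-08) and 2.54 ± 0.20 in WT mice (adjusted p = 8.615e-09), where the vMB level was 5.82-fold higher. Neurocan (Ncan), the lectican of the immature brain that persists at a lower level in the adult, went the other way: its values were 601, 407, 408 and 467 in vMB Mutant and 554, 587, 569 and 504 in vMB WT, against 1907, 1525, 1785 and 1855 in PFC Mutant and 1948, 1936, 1919 and 2179 in PFC WT. No vMB library came near the PFC libraries. The log2 difference was -1.92 ± 0.11 in Mutant mice (adjusted p = 8.624e-11) and -1.85 ± 0.11 in WT mice (adjusted p = 1.472e-10), where the vMB had 27.8% of the PFC level.

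Brevican (Bcan), the most abundant lectican of the adult brain, averaged 2549 ± 125 in vMB Mutant and 2353 ± 206 in PFC Mutant, with overlap and a log2 difference of 0.12 (adjusted p = 0.147). It averaged 2811 ± 63.9 in vMB WT and 2325 ± 172 in PFC WT (SD, n = 4 each). All 4 vMB WT libraries lay above the 4 PFC WT libraries, and the log2 difference of 0.28 ± 0.07 had an adjusted p of 0.0023 but fell short of the 1.3-fold minimum. Under quantile normalization the log2 difference of Bcan in WT mice was 0.46 (adjusted p = 4.008e-05), which is called. Versican (Vcan), which is made largely by oligodendrocyte precursors, did not pass in either genotype, with log2 differences of 0.23 (95% interval -0.31 to 0.76) in Mutant and 0.04 (-0.50 to 0.57) in WT mice. The interval in Mutant mice leaves room for a difference of the size that was called for Tnc there (0.63). The interval in WT mice ends somewhat below the difference called for Tnc there (0.62).

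The link proteins divided in the same way by gene. Hapln2, which is made by oligodendrocytes and sits at the nodes of Ranvier, had 1199, 1299, 1261 and 1096 in vMB Mutant and 1278, 1062, 1016 and 1266 in vMB WT, against 137, 391, 146 and 208 in PFC Mutant and 134, 188, 294 and 171 in PFC WT. The highest PFC library of each genotype was the one with the high oligodendrocyte markers, Mutant replicate 2 and WT replicate 3. The log2 difference was 2.58 ± 0.26 in Mutant mice (adjusted p = 1.298e-07) and 2.60 ± 0.26 in WT mice (adjusted p = 1.342e-07), and without that pair of libraries it was 2.90 in Mutant and 2.81 in WT mice. All 12 oligodendrocyte markers were also called higher in the vMB in both genotypes, with a median log2 difference of 2.06 in Mutant and 2.18 in WT mice. Hapln4, the link protein that works with brevican in the nets of the brainstem, averaged 1667 ± 102 in vMB Mutant and 1024 ± 18.3 in PFC Mutant, a log2 difference of 0.70 (adjusted p = 9.673e-06). In WT mice Hapln4 averaged 1899 ± 255 in the vMB and 1148 ± 161 in the PFC, a log2 difference of 0.73 ± 0.10 (adjusted p = 6.857e-06). Hapln1, the link protein whose loss in mice leaves nets incomplete, did not pass in either genotype. In Mutant mice its log2 difference was -0.07 (95% interval -0.29 to 0.14). In WT mice it averaged 195 ± 14.6 in the vMB and 230 ± 28.5 in the PFC (log2 difference -0.24, -0.45 to -0.02, adjusted p = 0.0621).

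Of the tenascins, Tnr averaged 164 ± 34.5 in vMB Mutant and 268 ± 98.6 in PFC Mutant, and the log2 difference of -0.66 ± 0.21 passed (adjusted p = 0.0128), although the vMB and PFC libraries overlapped. In WT mice Tnr averaged 275 ± 40.1 in the vMB and 436 ± 58.0 in the PFC, and the log2 difference of -0.66 ± 0.21 passed (adjusted p = 0.0131) without overlap. The call in Mutant mice was lost without PFC Mutant replicate 3 (log2 difference -0.48, adjusted p = 0.0562) or PFC Mutant replicate 4 (-0.53, adjusted p = 0.0521). Tnc, a tenascin of the developing brain and of germinal zones, had low values throughout, 21.5 to 45.4 in vMB Mutant and 33.2 to 49.4 in vMB WT, against 15.8 to 27.6 in PFC Mutant and 22.9 to 28.2 in PFC WT. Its log2 differences of 0.63 in Mutant (adjusted p = 0.0259) and 0.62 in WT mice (adjusted p = 0.0297) passed narrowly. In Mutant mice the call was lost without any 1 of vMB Mutant replicate 1 (adjusted p = 0.0936), vMB Mutant replicate 2 (0.0691) or PFC Mutant replicate 1 (0.0887), and in WT mice without vMB WT replicate 3 (0.0738), vMB WT replicate 4 (0.0891), PFC WT replicate 1 (0.0535) or PFC WT replicate 2 (0.0722). The Tnc call was also lost with no filter on low values (adjusted p = 0.0577 in Mutant and 0.0655 in WT mice), with only the libraries compared in Mutant mice (0.0646) and under quantile normalization in WT mice (0.0736). Ptprz1, a receptor tyrosine phosphatase of glia whose secreted form, phosphacan, is itself a proteoglycan of the net, did not pass, with a log2 difference of -0.07 (95% interval -0.32 to 0.18) in Mutant and in WT mice alike, and the sign turned under quantile normalization. Without both oligodendrocyte-rich PFC libraries the same 6 genes were called in each genotype, with log2 differences in Mutant and WT mice of 2.53 and 2.49 for Acan, -1.99 and -1.87 for Ncan, -0.79 and -0.62 for Tnr, 0.66 and 0.66 for Tnc, and 0.71 and 0.76 for Hapln4.

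**Figure D2:**
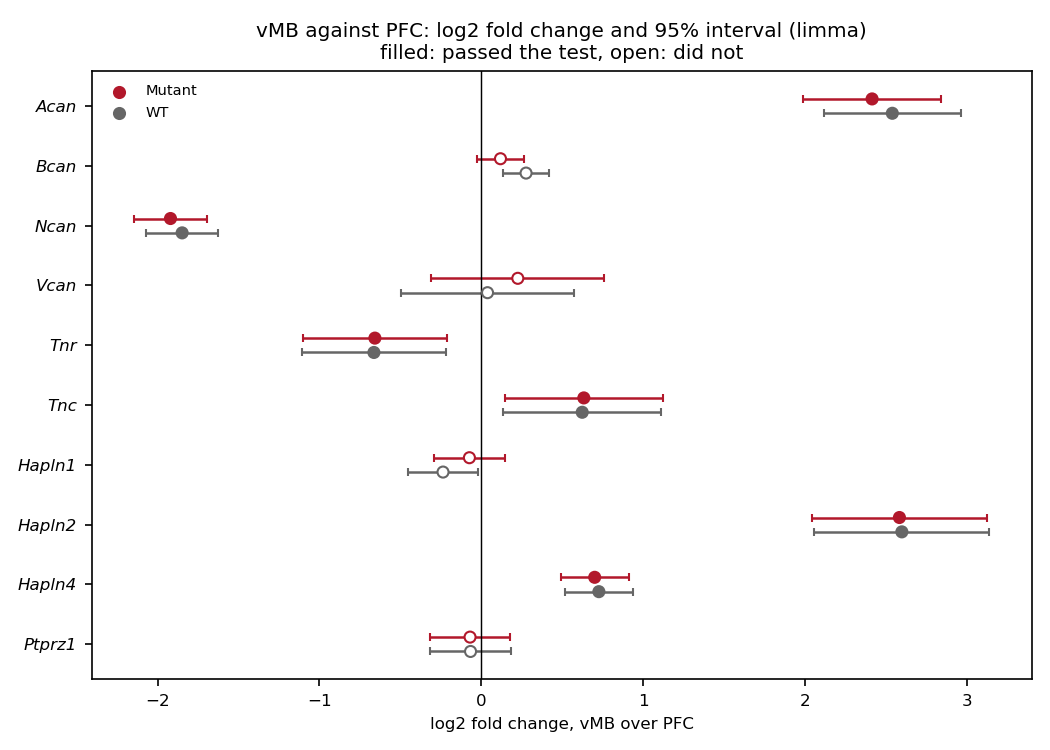
Log2 fold change of the vMB over the PFC (horizontal axis) for each gene, in Mutant (red) and WT (grey) mice, with 95% intervals from limma. Filled points passed the test. The estimates of the 2 genotypes lie close together for every gene, with Acan and Hapln2 between 2.42 and 2.60 and Ncan at -1.92 in Mutant and -1.85 in WT.

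Each link protein gene lies beside a lectican gene in the mouse genome, and these neighbours were compared after their values had been seen. Hapln4 and Ncan on chromosome 8 are transcribed towards each other with 2222 bp between their ends. The log2 ratio of Hapln4 to Ncan averaged 1.84 ± 0.33 in vMB Mutant and -0.78 ± 0.16 in PFC Mutant, a difference of 2.62. In WT mice the ratio was 1.77 ± 0.26 in the vMB and -0.81 ± 0.19 in the PFC. Hapln2 and Bcan on chromosome 3, 21.5 kb apart, differed likewise, with a log2 ratio of -1.07 ± 0.04 in vMB Mutant and -3.54 ± 0.61 in PFC Mutant, and -1.29 ± 0.17 in vMB WT and -3.61 ± 0.43 in PFC WT. For Hapln1 and Vcan on chromosome 13, 43.7 kb apart, the log2 ratio was -0.17 ± 0.46 in vMB Mutant and 0.13 ± 0.48 in PFC Mutant, and -0.26 ± 0.52 in vMB WT and 0.01 ± 0.25 in PFC WT. These ratios are a description with no test, since the pairs were chosen with the tissue levels of their genes known.

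Levels of different genes were set side by side as the normalized value per kb of summed exon length. Bcan had the highest such level in all 4 groups, 627 in vMB Mutant and 692 in vMB WT, and 579 in PFC Mutant and 572 in PFC WT. In the vMB Hapln2 came next, at 512 in Mutant and 487 in WT, then Hapln4, at 425 in Mutant and 484 in WT; the ranges of Hapln2 and Hapln4 overlapped in WT and were apart in Mutant libraries. In the PFC Hapln4 came next, at 261 in Mutant and 293 in WT, then Ncan, at 246 in Mutant and 277 in WT, with overlapping ranges. Tnc was lowest in the vMB, at 4.51 in Mutant and 5.30 in WT. Acan and Tnc were lowest in the PFC with overlapping ranges, Acan at 2.59 in Mutant and 3.34 in WT and Tnc at 2.81 in Mutant and 3.36 in WT.

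As a share of the summed lectican level per kb, brevican made up 86.7% ± 2.13 in vMB Mutant and 85.9% ± 0.97 in vMB WT, against 68.7% ± 3.35 in PFC Mutant and 65.8% ± 1.3 in PFC WT (SD, n = 4). Neurocan made up 9.06% in vMB Mutant and 9.56% in vMB WT, against 29.3% in PFC Mutant and 31.9% in PFC WT. Aggrecan was a small part everywhere, 1.97% in vMB Mutant and 2.46% in vMB WT, against 0.308% in PFC Mutant and 0.382% in PFC WT. Among the link proteins, Hapln2 made up 52.7% ± 0.85 in vMB Mutant and 48.5% ± 0.85 in vMB WT, against 23.0% ± 8.72 in PFC Mutant and 19.9% ± 5.50 in PFC WT. Hapln4 was the main link protein of the PFC, with 67.7% in Mutant and 70.6% in WT.

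**Figure D3:**
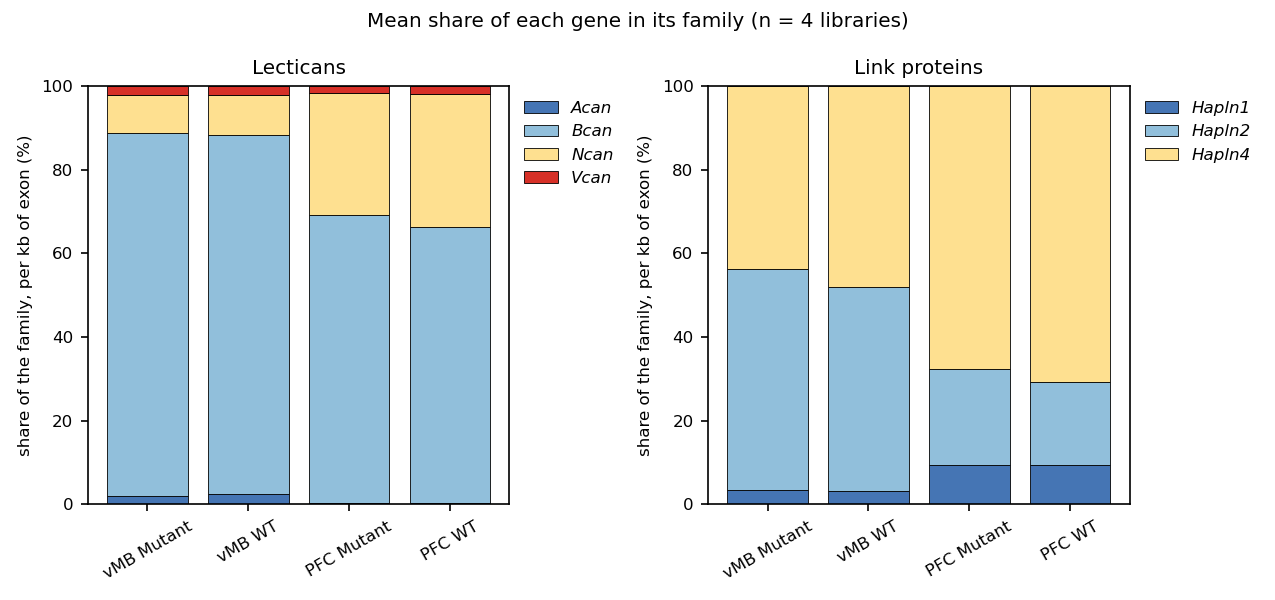
Mean share of each gene in the summed level per kb of exon of its family (vertical axis, percent, from 0 to 100), for the lecticans (left) and the link proteins (right), in the 4 groups of 4 libraries. Bcan fills most of the lectican bar in every group and Ncan takes 29.3% in PFC Mutant and 31.9% in PFC WT libraries, while Hapln2 and Hapln4 share the vMB bars about evenly.

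The genotype comparison addressed whether the Cdh2 substitution goes with a change of these transcripts. Tnr was lower in Mutant tissue, at 59.0% of the WT level in the vMB and 58.8% in the PFC, and Ptprz1 was at 76.4% in the vMB and 76.6% in the PFC. Tnr passed the test in the vMB and over both tissues, and Ptprz1 over both tissues only. No other gene of the 10 passed in any genotype comparison, and none was called higher. In the vMB 1 of 10 was called lower, where 2.02% of all genes were. Over both tissues 2 of 10 were called lower, where 1.64% of all genes were, and in the PFC 0 of 10 were called, where 0.142% of all genes were.

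Tnr had 192, 137, 194 and 131 in vMB Mutant, against 226, 273, 277 and 324 in vMB WT. The groups did not overlap. The log2 fold change was -0.76 ± 0.21 (SE, 95% interval -1.21 to -0.31, adjusted p = 0.0392), and the two-sided exact permutation test gave p = 0.0286, the smallest that 4 against 4 libraries allow. In the PFC Tnr had 176, 191, 370 and 334 in Mutant libraries, against 435, 354, 474 and 480 in WT libraries. The groups overlapped by the single Mutant replicate 3, and the Mutant libraries fell into a low and a higher pair. The log2 fold change of -0.77 ± 0.21 (95% interval -1.21 to -0.32) did not pass (adjusted p = 0.0899), and it was -0.95 with an adjusted p of 0.0303 without PFC Mutant replicate 3. Without any 1 of the other libraries the adjusted p was up to 0.222, and without both oligodendrocyte-rich PFC libraries the log2 fold change of Tnr in the PFC was -0.59 (adjusted p = 0.347). Over both tissues the log2 fold change was -0.76 ± 0.15 (adjusted p = 0.0032), and it was called without any 1 of the 16 libraries and, at -0.67 (adjusted p = 0.0151), without both oligodendrocyte-rich PFC libraries. The vMB call was lost without vMB Mutant replicate 2 (adjusted p = 0.109), vMB Mutant replicate 4 (0.142), vMB WT replicate 2 (0.0826), vMB WT replicate 3 (0.0808) or vMB WT replicate 4 (0.138), and also with no filter on low values (0.061) or no mean-variance trend (0.0715). An antisense gene, Gm38039, shares 443 bp with the exons of Tnr (3.44% of them), and the sources do not say whether the counting used strand.

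Ptprz1 had 1532, 1489, 1531 and 1199 in vMB Mutant, against 1552, 2081, 2040 and 1864 in vMB WT. In the PFC it had 1185, 1511, 1619 and 1748 in Mutant libraries, against 1784, 1852, 2151 and 2073 in WT libraries. In each tissue the highest Mutant value was below the lowest WT value, though by only 20 units in the vMB. The log2 fold change was -0.39 ± 0.12 in the vMB (adjusted p = 0.0595), -0.38 ± 0.12 in the PFC (adjusted p = 0.12) and -0.39 ± 0.08 over both tissues (95% interval -0.56 to -0.21, adjusted p = 0.0059). The change over both tissues lies close to the 1.3-fold minimum: without any 1 of PFC Mutant replicate 1 (-0.33), vMB Mutant replicate 4 (-0.34), PFC WT replicate 3 (-0.36), PFC WT replicate 4 (-0.37), vMB WT replicate 2 (-0.36) or vMB WT replicate 3 (-0.37) it fell short of that minimum, with adjusted p of 0.00991 to 0.0155. The same held under upper quartile scaling (-0.36, adjusted p = 0.007) and without both oligodendrocyte-rich PFC libraries (-0.37, adjusted p = 0.0229), where Ptprz1 in the PFC was at -0.34 (adjusted p = 0.349). In the vMB Ptprz1 passed with a mean of at least 50 (adjusted p = 0.0492), quantile normalization (0.0394), only the libraries compared (0.0444) or the replicate block (0.0442).

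The lecticans did not pass. Acan averaged 107 ± 15.5 in vMB Mutant and 148 ± 26.7 in vMB WT (log2 fold change -0.46, adjusted p = 0.191), and 19.3 ± 4.13 in PFC Mutant and 25.0 ± 7.14 in PFC WT (-0.34, adjusted p = 0.416). Over both tissues its log2 fold change was -0.40 ± 0.14 (adjusted p = 0.0736), and it was called without PFC Mutant replicate 2 (-0.46, adjusted p = 0.0478) or PFC WT replicate 2 (-0.46, adjusted p = 0.0455). Without both oligodendrocyte-rich PFC libraries the log2 fold change of Acan was -0.50 for the PFC alone (adjusted p = 0.4), and over both tissues it was -0.48 (adjusted p = 0.0538). For Ncan every PFC Mutant library (1525 to 1907) was below every PFC WT library (1919 to 2179), and the log2 fold change was -0.25 in the vMB (adjusted p = 0.176), -0.18 in the PFC (adjusted p = 0.415) and -0.21 ± 0.08 over both tissues (adjusted p = 0.0686). Bcan had 2390 to 2678 in vMB Mutant and 2757 to 2893 in vMB WT, without overlap, at a log2 fold change of -0.14 (95% interval -0.29 to 0.00, adjusted p = 0.247). In the PFC the log2 fold change of Bcan was 0.02 (-0.13 to 0.16). Counted over the 10 genes, the Mutant libraries were all lower than the WT libraries for 3 genes in the vMB (Tnr, Ptprz1 and Bcan), where 7.56% of all genes were, and for 2 in the PFC (Ptprz1 and Ncan), where 3.79% of all genes were.

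Vcan varied widely among libraries of a group, with 172 to 293 in vMB Mutant and 176 to 359 in vMB WT, and its interval over both tissues ran from -0.51 to 0.25 on the log2 scale. Tnc had log2 fold changes of -0.26 in the vMB and -0.27 in the PFC, and over both tissues an interval from -0.61 to 0.08. For the link proteins the log2 fold changes over both tissues were -0.17 for Hapln4 (95% interval -0.32 to -0.02, adjusted p = 0.133), -0.02 for Hapln1 (-0.17 to 0.13) and 0.08 for Hapln2 (-0.30 to 0.47). The sign for Hapln1 turned under upper quartile scaling. In the PFC the log2 fold change of Hapln2 was 0.09 with all libraries and -0.02 without both oligodendrocyte-rich libraries.

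**Figure D4:**
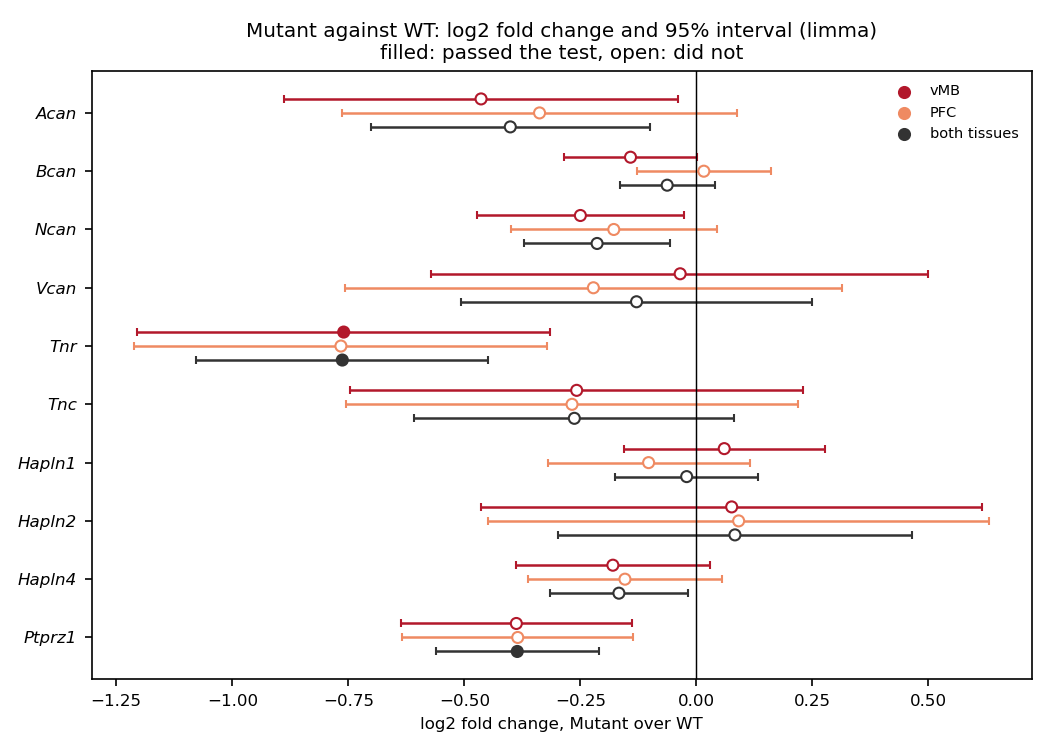
Log2 fold change of Mutant over WT (horizontal axis) for each gene in the vMB (red), the PFC (orange) and over both tissues (black), with 95% intervals from limma. Filled points passed the test: Tnr in the vMB (-0.76) and over both tissues (-0.76), and Ptprz1 over both tissues (-0.39).

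The fold changes of 8 of the 10 genes were below 0 in the vMB and of 8 in the PFC, and of 9 over both tissues, where 51.1%, 51.5% and 52.2% of all genes were. The median of the 10 was -0.21 in the vMB, -0.20 in the PFC and -0.19 over both tissues, against -0.01 over all genes in each comparison. The values over all genes take no account of exon length, which is set beside the 10 genes below. The genotype change did not differ between the tissues by the interaction test for any of the 10 genes: the smallest adjusted p was 0.864, none had an unadjusted p under 0.05, and limma called 0 of all genes (0.0%), with 864 of them (5.83%) at an unadjusted p under 0.05. The interval of the difference, vMB change minus PFC change, ran from -0.62 to 0.63 for Tnr and from -0.35 to 0.35 for Ptprz1 on the log2 scale, so that a moderate difference between tissues would not have been detectable.

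Exon length moved with genotype across all genes. In each library the log2 value was regressed on log2 exon length after subtraction of the gene means, and the slope was -0.09 ± 0.03 in vMB Mutant and 0.01 ± 0.03 in vMB WT, and 0.00 ± 0.03 in PFC Mutant and 0.08 ± 0.02 in PFC WT (SD, n = 4). The Mutant and WT slopes did not overlap in either tissue. Tnr, Ptprz1, Vcan and Tnc, with 12.9, 14.2, 14.5 and 7.77 kb of exon, belong to the longest of 5 equal classes of genes, whose median log2 fold change over both tissues was -0.14 and of which 5.18% were called lower. In the vMB the median of that class was -0.14 and 6.68% of it were called lower. In the PFC its median was -0.13 and 0.341% were called lower. Acan, Ncan and Hapln1 belong to the next class (median -0.07), and Hapln2, with 2.37 kb, to the shortest (median 0.15).

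With each library's length trend taken out, the log2 fold change over both tissues was -0.59 for Tnr (adjusted p = 0.0184), still called, and -0.20 for Ptprz1 (adjusted p = 0.135), no longer called. In the vMB Tnr was then at -0.58 (adjusted p = 0.121), also no longer called. Vcan, as long as Ptprz1, had a log2 fold change of -0.13 before and 0.06 after removal. Within groups, the deviation of a library from its group mean in Tnr went with its deviation in the length slope (Pearson r = 0.88 over 16 libraries, which share depth and scaling between the measures), and for Ptprz1 r was 0.60. The removal takes out the mean trend of all genes with exon length, and a single gene can follow the slope more steeply. Whether the Tnr change left after removal goes with the slope was not tested.

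**Figure D5:**
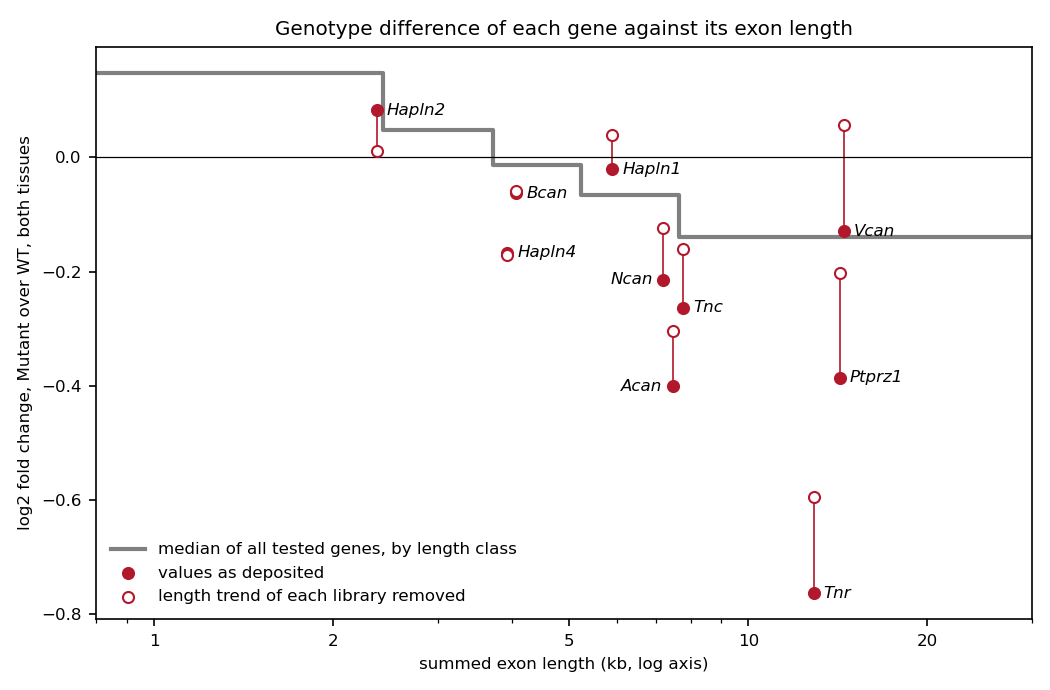
Log2 fold change of Mutant over WT over both tissues (vertical axis) against summed exon length (horizontal axis, kb, log scale) for the 10 genes. Filled points are from the values as deposited, open points after removal of each library's length trend, and the grey line is the median of all tested genes in each of 5 length classes. Tnr is the lowest of the 10 at -0.59 after removal, and Ptprz1 moves to -0.20. The removal takes out the mean trend over genes, and a single gene can follow the length slope more steeply.

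Other genes of the pathway were examined from lists chosen by function. Of 5 measured genes of hyaluronan synthesis and breakdown, 1 was called lower over both tissues, Hyal1, a hyaluronidase of lysosomes. Hyal1 had 53.5, 41.1, 44.4 and 40.8 in vMB Mutant and 68.7, 66.3, 52.1 and 88.4 in vMB WT, and 35.4, 26.0, 48.5 and 36.4 in PFC Mutant and 46.5, 56.5, 38.7 and 55.2 in PFC WT. Its groups overlapped in both tissues, and the log2 fold change over both was -0.51 ± 0.14 (adjusted p = 0.0236). Over all genes 3.25% were called in the vMB, 0.142% in the PFC and 2.59% over both tissues. None of 21 genes of chondroitin sulfate synthesis and sulfation was called in the vMB, in the PFC or over both tissues, and their median log2 fold change over both tissues was -0.03. None of 15 matrix proteases and inhibitors (median -0.17) and none of 12 other proteoglycans and tenascins (median -0.23) was called either.

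Of 17 receptors and ligands of the net, 1 was called lower in the vMB: Nfasc, which encodes neurofascin, an adhesion molecule of nodes and axon initial segments. Nfasc had 2469, 2440, 2749 and 2402 in vMB Mutant, against 3335, 3233, 3085 and 3853 in vMB WT. The groups were apart, and the log2 fold change was -0.42 ± 0.09 (adjusted p = 0.0113). In the PFC the log2 fold change of Nfasc was -0.27 (adjusted p = 0.141). Over both tissues it was -0.34 (adjusted p = 0.0021), short of the 1.3-fold minimum only, and no gene of that list was called in the PFC or over both tissues.

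Markers of the cells that carry or make the matrix were set beside these values. Of 12 parvalbumin interneuron markers, 1 was called over both tissues, Pvalb itself, and it was higher, where 0.945% of all genes were called higher. Pvalb had 1399, 1832, 1860 and 1743 in vMB Mutant and 1526, 1142, 1177 and 1176 in vMB WT, and 448, 489, 306 and 361 in PFC Mutant and 265, 273, 366 and 346 in PFC WT, with overlap in both tissues and a log2 fold change of 0.40 ± 0.10 over both (adjusted p = 0.0173). Of the 12 markers of that list, 9 were below 0 over both tissues, at a median of -0.08. The summed level of the list was 18760 to 21430 in vMB Mutant and 19200 to 23070 in vMB WT, and 8221 to 9139 in PFC Mutant and 8484 to 9872 in PFC WT. None of 12 astrocyte markers, 9 oligodendrocyte precursor markers or 12 oligodendrocyte markers was called by genotype. Pdgfra, the defining marker of oligodendrocyte precursors, had 304 to 406 in vMB Mutant and 385 to 482 in vMB WT, and 361 to 506 in PFC Mutant and 402 to 538 in PFC WT. Of the 9 precursor markers, 7 were below 0 in the vMB (median -0.13), 4 in the PFC (0.04) and 5 over both tissues (-0.09). The precursor list summed to 10580 to 10850 in vMB Mutant and 9568 to 11330 in vMB WT. In the PFC it summed to 3711 to 6914 in Mutant and 3952 to 6132 in WT libraries. The oligodendrocyte markers summed to 164900 to 181400 in vMB Mutant and 143000 to 171100 in vMB WT. Of these 12 markers, 1 was below 0 in the vMB, 2 in the PFC and 1 over both tissues. Of all genes, 51.1%, 51.5% and 52.2% were below 0. The median log2 fold change of the oligodendrocyte markers was 0.14 in the vMB, 0.19 in the PFC and 0.17 over both tissues. The shortest of the 5 exon length classes had medians of 0.161 in the vMB, 0.143 in the PFC and 0.148 over both tissues. Exon lengths of the pathway and marker genes were not examined, and the part of length in their changes was not tested. The astrocyte markers were below 0 for 6 of 12 in the vMB, 10 in the PFC and 9 over both tissues, and their median log2 fold change was -0.02, -0.12 and -0.08. Aqp4, the water channel of astrocytes, had 2315 to 2752 in vMB Mutant and 2417 to 2725 in vMB WT, and 765 to 988 in PFC Mutant and 1011 to 1146 in PFC WT, where the groups were apart. S100b, a calcium-binding protein of astrocytes, went the other way, with 3762 to 4055 in vMB Mutant and 3035 to 3670 in vMB WT, and 870 to 1424 in PFC Mutant and 876 to 1075 in PFC WT (log2 fold change over both tissues 0.28, adjusted p = 0.03, short of the 1.3-fold minimum).

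Some markers of vessels, meninges and microglia were called by genotype in the vMB or over both tissues. No marker of these lists was called in the PFC, where 0.142% of all genes were. Of 10 endothelial markers 4 were called lower in the vMB (Cdh5, Tek, Pecam1 and Flt1), where 2.02% of all genes were, and 3 over both tissues (Cdh5, Tek and Flt1), where 1.64% of all genes were. The endothelial list summed to 1901 to 2231 in vMB Mutant and 2104 to 2611 in vMB WT. In the PFC it summed to 2016 to 2737 in Mutant and 2424 to 2842 in WT libraries, so that the groups overlapped in both tissues. Its median log2 fold change was -0.554 in the vMB and -0.095 in the PFC. Of 10 pericyte and smooth muscle markers 1 was called lower in the vMB, Pdgfrb, and 1 over both tissues, Abcc9. The list summed to 1822 to 2021 in vMB Mutant and 2138 to 2439 in vMB WT. In the PFC it summed to 1828 to 2481 in Mutant and 2135 to 3168 in WT libraries, with overlap. Of 10 fibroblast and meningeal markers 9 were below 0 in the vMB (median -0.43) and 1 was called lower over both tissues, Col1a1, a collagen (log2 fold change -0.73, adjusted p = 0.0084). That list summed to 1079 to 1638 in vMB Mutant and 1435 to 1824 in vMB WT, and to 572 to 872 in PFC Mutant and 572 to 1056 in PFC WT. Of 10 microglia markers 1 was called higher in the vMB, P2ry12, a purine receptor of microglia (0.38, adjusted p = 0.0444), where 1.23% of all genes were called higher. The microglia list summed to 3570 to 4092 in vMB Mutant and 3395 to 3536 in vMB WT, and to 4885 to 6076 in PFC Mutant and 4030 to 5443 in PFC WT. The part of any of these markers in the lower values of Tnr and Ptprz1 in Mutant tissue was not tested.

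In the tissue comparison, 23.7% of all genes were called higher and 23.6% lower in the vMB of Mutant mice, and 22.0% higher and 21.6% lower in WT mice. Of 15 matrix proteases and inhibitors, 9 were called higher and 1 lower in Mutant mice, and 10 higher and 2 lower in WT mice. Of 17 receptors and ligands, 4 were called higher and 10 lower in each genotype. Of the 21 genes of chondroitin sulfate synthesis, 2 were called higher and 4 lower in Mutant mice, and 3 higher and 5 lower in WT mice. Of the 12 parvalbumin interneuron markers 8 were called higher and 1 lower in each genotype.

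How the 10 genes varied together was described by the correlation of their log2 values over the 16 libraries after subtraction of the 4 group means. Over the 45 pairs the median r was 0.21, 29 pairs were above 0, and the range was -0.53 to 0.75. The highest were Acan with Hapln4 (0.75) and Tnr with Ptprz1 (0.72). By the same measure, the genes most like Tnr were Add2, which encodes an adducin of the membrane skeleton (0.98), Grin2a, an NMDA receptor subunit (0.95), and Atp2b3, a calcium pump of the plasma membrane (0.95). Those most like Hapln2 were Trf, Cers2 and S1pr5 (0.97, 0.96 and 0.96), and those most like Bcan were Glul, Aldh1l1 and Psd2 (0.90, 0.90 and 0.87); Glul and Aldh1l1 encode enzymes of astrocytes. Those most like Acan were Sh3bp1, Dtnbp1 and Ckb (0.92, 0.88 and 0.88). The genes listed as most like another were the 3 highest by r of all eligible genes. Picking the highest of many raises r by itself, by an amount that was not tested. These values are descriptive, since the libraries share their depth and their length slope across genes. Those of Hapln2 also include the pair of oligodendrocyte-rich PFC libraries, where Hapln2 was highest within its PFC group (391 in Mutant replicate 2 and 294 in WT replicate 3). Its correlations without that pair were not computed.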

How the data were processed

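Poly-A RNA-seq was made from the vMB and the PFC of Mutant and WT mice, with 4 libraries per group. Single-end reads were trimmed (Cutadapt 1.8.3), aligned (TopHat 2.0.10) and assigned to genes (HTSeq-count 0.6.1p1) by the authors. What they deposited is a signal per gene and library, counts scaled by the authors in DESeq2 (version not stated). Their methods name a human genome, but the identifiers are of mouse genes, so the mouse build is not known. The p-value columns deposited by the authors, their score columns of signed fold changes and other pass marks, also deposited by the authors, hold their own comparisons and were not used. Of a library's low values, 66.9% to 69.4% lay within 0.05 of a whole step, so reads could not be recovered and no count test was run.

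Values were tested as log2(value + 1) with limma 3.58.1 in R 4.3.3 (mean-variance trend, 4 groups in 1 fit, two-sided), over 14814 genes with a mean of at least 10, of 27197 above 0. Calls needed a Benjamini-Hochberg adjusted p of 0.05 or less and a fold of 1.3 or more; the pseudocount understates the change of low genes. Single values were compared by exact permutation over 70 splits (SciPy 1.17.1). Exon lengths are from GENCODE vM21 on GRCm38 (99% of tested genes) and promoters from RefSeq. Steps were tested on simulated data. All 10 genes were named. From the lists, every gene called in a genotype comparison was named, and defining markers where they move with a result. The 3 most similar genes had a mean of at least 50 and were shown for 4 of the 10 genes. Genes and lists were chosen with earlier results of these data known. Replicates are separate samples by their labels, and which libraries share an animal is not given. Alternatives changed the pseudocount, filter, scaling, libraries, spread, block, length and fold minimum.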

Additional observations from a re-analysis of the deposited data

Results flagged for a closer look

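Of 40 groups of 4 libraries, 10 genes in 4 groups, 2 had a library far from the others, and chance alone flags about 1 in 20 groups. Ptprz1 in vMB Mutant replicate 4 had a normalized value of 1199, where the nearest of the other vMB Mutant libraries had 1489, a gap of 0.871 of the whole range. Ncan in PFC WT replicate 4 had 2179, where the nearest of the other PFC WT libraries had 1948, a gap of 0.886 of the range.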

How the results depend on the processing

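Where a call or sign moved, the cause was not tested unless stated. Of the calls among the 10, Tnr over both tissues was kept without any 1 of the 16 libraries. So were the tissue call of Tnr in WT mice and those of Acan, Ncan, Hapln2 and Hapln4 in both genotypes. In the vMB, where 481 genes and 1 of the 10 (Tnr) were called, the 10 gave 0 calls with no filter on low values, with no mean-variance trend and with the length trend removed, alone or with the replicate block, and 2 with a mean of at least 50, quantile normalization, only the libraries compared or the replicate block. The genes called in the vMB numbered 133 with the length trend removed, 113 with the block added, 956 with no fold minimum and 99 at a fold of 1.5, a stricter rule by construction. In the PFC, where 21 genes were called, there were 3 with no filter, 57 with a mean of at least 50, 0 with only the libraries compared, with no trend and with the length trend removed, alone or with the block, 3 with the replicate block and 6 at a fold of 1.5. Over both tissues, where 383 genes and 2 of the 10 were called, the 10 gave 1 call under upper quartile scaling, length removal, alone or with the block, and a fold of 1.5, and the genes called numbered 113 with length removed, 115 with the block added, 1923 with no fold minimum and 83 at a fold of 1.5. Leaving out both oligodendrocyte-rich PFC libraries, an alternative chosen after seeing the data, gave 1 gene called in the PFC, 1 of the 10 over both tissues and 1 gene in the difference of the Mutant effect between tissues; the log2 fold change in the PFC was then -0.013 for Bcan and -0.016 for Hapln2, and the difference for Tnr -0.175. Signs also turned with length removed, with or without the block, for Vcan in the vMB (0.161) and over both tissues (0.057), Hapln2 in the vMB (-0.000803), Hapln1 over both (0.040; 0.00441 under upper quartile scaling), the difference for Ptprz1 (0.018) and Ptprz1 between tissues (0.075 in Mutant, 0.057 in WT). Quantile normalization turned the difference for Tnr (-0.031) and Ptprz1 between tissues (0.051 in Mutant, 0.109 in WT). Without 1 library at a time, calls among the 10 ran from 0 to 2 in the vMB, 0 to 1 in the PFC and 1 to 3 over both tissues, and genes called from 163 to 573, 0 to 260 and 245 to 542, and 0 to 1 for the difference between tissues. Log2 fold changes then ran in the vMB from -0.169 to 0.171 for Vcan, -0.851 to -0.662 for Tnr and -0.478 to -0.303 for Ptprz1, in the PFC from -0.029 to 0.077 for Bcan, -0.947 to -0.591 for Tnr and -0.228 to 0.302 for Hapln2, and over both from -0.460 to -0.314 for Acan, -0.060 to 0.013 for Hapln1, -0.076 to 0.189 for Hapln2 and -0.431 to -0.330 for Ptprz1. The difference between tissues ran from -0.169 to 0.187 for Tnr and -0.116 to 0.082 for Ptprz1. The vMB over the PFC ran in Mutant mice from -0.832 to -0.476 for Tnr, 0.493 to 0.845 for Tnc and -0.182 to 0.016 for Ptprz1, and in WT mice from -0.167 to 0.173 for Vcan, 0.533 to 0.720 for Tnc and -0.117 to 0.024 for Ptprz1. Replicate numbers shared between groups did not pair the libraries: deviations of same-numbered libraries correlated from -0.132 to 0.0873 over 24 pairs, none above 0.1. The 4 pairs of libraries that share a title code correlated from -0.0317 to 0.00764, and with the code as a correlated block 1 of the 10 was called in the vMB and 2 over both tissues. The replicate block gave Tnr and Ptprz1 as the 2 calls in the vMB.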
